A study of Sus scrofa with 9 samples.

Results

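Aminoacyl-tRNA synthetases load each transfer RNA with its amino acid, and 27 genes of this family were followed across the diets. Members were the probe sets whose annotation gives 1 gene symbol of the synthetase family or of its scaffold subunits, with the brightest probe set kept for each gene. Of 12362 genes with a symbol on the array, this rule took 14 cytosolic enzymes, 11 mitochondrial enzymes and 2 scaffold subunits, on 28 probe sets, since WARS has a pair of them. IARS2 is counted because its symbol is the only one on its probe set, although it is given there for more than 1 gene ID. The other genes of the family were not analysed here, except TARSL2, which was counted among the accessory factors below. Cytosolic symbols are those of the array annotation (KARS is now called KARS1).

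Each of the 9 arrays measured the longissimus dorsi, the long back muscle, of 1 male finishing pig. Starting at around 95 kg, the pigs ate for 5 weeks a diet deficient in lysine (pigs 1, 2 and 3), adequate in it (pigs 5, 6 and 7) or in excess of it (pigs 9, 10 and 11). The lysine contents, breed and age are not given in the labels used here. The diets ask how the supply of an essential amino acid bears on muscle transcripts, and here on the enzymes that charge tRNA.

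Every amino acid has a synthetase that joins it to its own tRNAs, and the cytosol and the mitochondrion mostly use separate sets encoded by separate nuclear genes. KARS and GARS are exceptions, as each gene makes both forms. In animal cells several cytosolic enzymes sit in the multi-synthetase complex with the scaffold proteins AIMP1, AIMP2 and EEF1E1. When amino acids run short, uncharged tRNA activates the kinase GCN2, which raises translation of the transcription factor ATF4, and many cytosolic synthetase genes are known ATF4 targets.

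Values are log2 expression as deposited, so a difference of 1 is a change of 2-fold. A value after ± is the standard error (SE) of a difference from a limma model, over all 9 arrays unless a pig is left out. A probe set counts as called at a Benjamini-Hochberg adjusted p below 0.05 over all 27558 probe sets. None of the 27558 (0.0%) was called in any of the 3 comparisons or in the F test for any diet difference, so 0 members were called, and the counts below use an unadjusted p below 0.05 as a description. Exact permutation of 3 pigs against 3 cannot give a two-sided p below 0.10. The labels say nothing of litters or pens, and p-values measure the spread between these 9 pigs. Array quality weights from limma were lowest for excess pigs 10 (0.19) and 11 (0.22), and ran from 0.68 to 2.46 for the other pigs. In correlation the array of excess pig 11 stood apart, at 0.904 to 0.956 to the other arrays, which correlated at 0.977 to 0.992 among themselves. Its probe sets at or above the median level had a median deviation of -0.28 from the mean of pigs 9 and 10, so results with excess pigs are also given without it. This deviation varied with level: in the deciles of mean level it was -0.41 in the 8th, -0.53 in the 9th and -0.30 in the 10th, against -0.595 for the cytosolic and -0.059 for the mitochondrial enzymes. The median level was 8.575 for the former and 5.893 for the latter. The tissue label was met by the 4 measured skeletal muscle markers ACTA1, MYH7, TNNC2 and MYLPF, whose mean level per pig was 12.8 to 13.0. Of the members, 22 lay at or above the median of all values, 5.06. CARS, AARS2, EARS2, PARS2 and SARS2 lay below it and no background level was tested, so differences of these 5 may be compressed. Transcript level in whole muscle cannot tell fewer cells of a type from less RNA per cell.

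**Figure D1:**
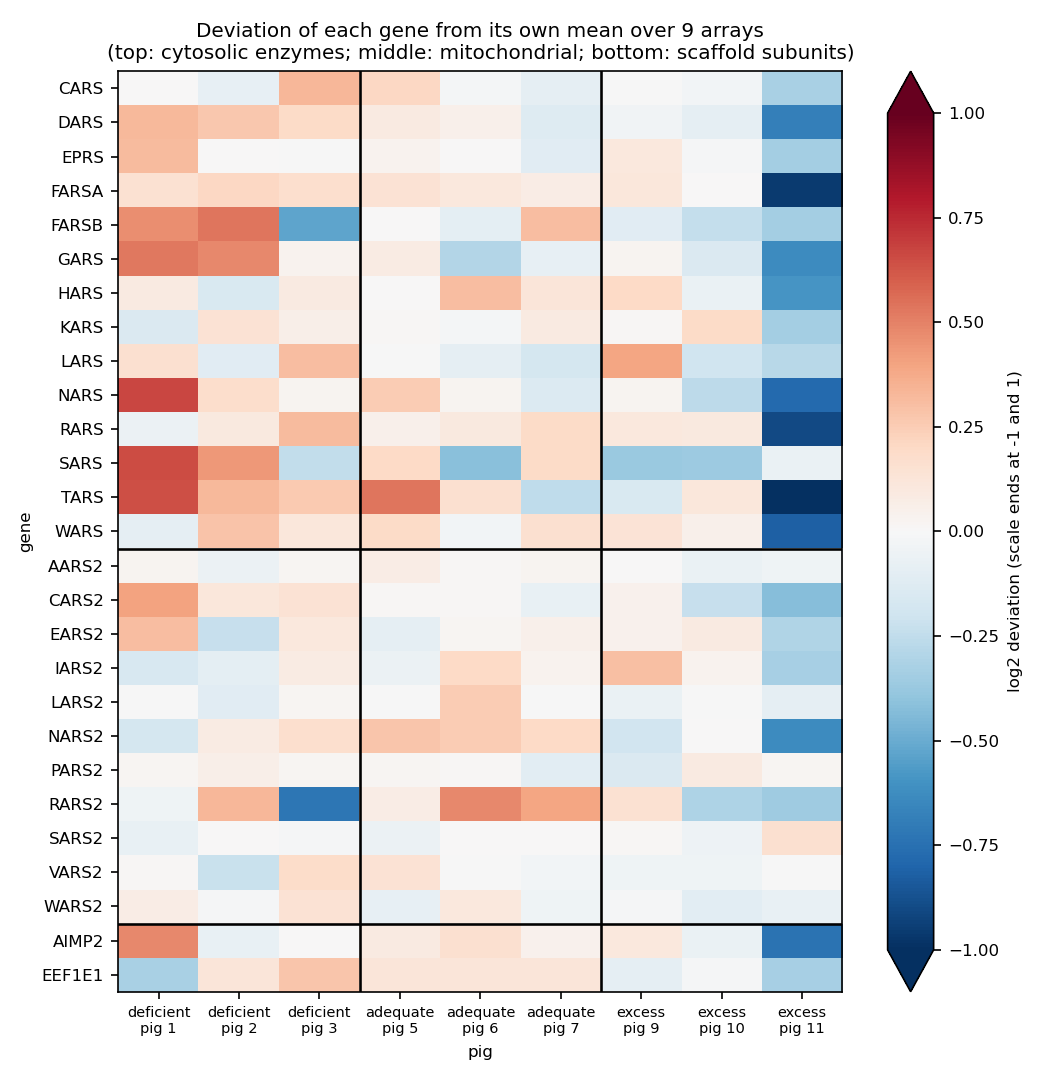
Heat map of the log2 deviation of each member from its own mean over the 9 arrays, with 1 column per pig and 1 row per gene; red is above and blue below the mean, and the colour scale ends at -1 and 1. The column of excess pig 11 is blue for all 14 cytosolic enzymes, and the deepest cell is TARS, at 6.79 against a mean of 8.42.

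KARS, which charges tRNA with lysine, the amino acid varied in the diets, had nearly the same level in every group. Its values were 11.01, 11.30 and 11.21 in the deficient pigs, 11.17, 11.13 and 11.24 in the adequate pigs and 11.17, 11.34 and 10.81 in the excess pigs. All groups overlapped, and the lowest value was that of pig 11. Deficient minus adequate was -0.0071 ± 0.14, with a 95% confidence interval from -0.33 to 0.32, and excess minus adequate was -0.072 ± 0.14, from -0.40 to 0.25. These intervals leave room for a change of up to about 0.40 in size. Deficient minus excess was 0.064 ± 0.14, from -0.26 to 0.39. Without pig 11 these last differences were 0.077 ± 0.10 and -0.084 ± 0.10, so both signs turned, and that of deficient minus adequate turned without deficient pig 1 (0.075) or adequate pig 7 (0.023).

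Between deficient and adequate pigs, 11 of 14 cytosolic enzymes lay higher in the deficient pigs, with a median log2 difference of 0.11. After quantile normalization of the deposited values this was 12 of 14 and 0.12. No cytosolic enzyme passed the adjusted test. Over all probe sets 52.9% lay higher and the median difference was 0.0071, and among probe sets at or above the median level 44.0% lay higher. No member reached an unadjusted p below 0.05, where 1.85% of all probe sets did. The highest differences were those of GARS at 0.44 ± 0.20, SARS at 0.29 ± 0.26 and TARS at 0.26 ± 0.44.

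GARS, which charges glycine in both compartments, had values of 9.37, 9.32 and 8.88 with deficient lysine against 8.93, 8.55 and 8.76 with adequate lysine. Only deficient pig 3 overlapped the adequate pigs. The difference was 1.36-fold, with a 95% confidence interval from -0.03 to 0.92 on the log2 scale (limma, adjusted p = 1.0), and its SE was 0.16 without excess pig 11, which enters the estimate of spread. DARS, the aspartate enzyme, had 10.46, 10.40 and 10.32 in the deficient pigs and 10.23, 10.18 and 10.01 in the adequate pigs. Its groups did not overlap, and the difference was 0.26 ± 0.17 (limma, adjusted p = 1.0), with an SE of 0.075 without pig 11. FARSA, the catalytic subunit of the phenylalanine enzyme, also had no overlap, at 8.52, 8.58 and 8.54 against 8.52, 8.48 and 8.45, but the step was only 0.068 ± 0.25. Its partner subunit FARSB spread widely within the deficient group, from 9.15 in pig 3 to 10.22 in pig 2. Over all members the groups lay fully apart for 3 genes in the higher direction (DARS, FARSA and CARS2), against 3.77% of all probe sets and 3.4% of those at or above the median level. They did so for 1 in the lower direction (NARS2), against 3.07% and 4.37%.

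The remaining cytosolic enzymes lay closer. NARS for asparagine differed by 0.24 ± 0.24, LARS for leucine by 0.21 ± 0.19 and EPRS, the fused glutamate and proline enzyme, by 0.13 ± 0.14. FARSB differed by 0.087, CARS for cysteine by 0.050 and RARS for arginine by 0.0064. WARS for tryptophan differed by -0.0052 and HARS for histidine by -0.13, so that RARS, WARS and KARS were level to within 0.01 in size. Of 12 cytosolic enzymes listed as known ATF4 targets, 8 were measured, with a median of 0.23 and 7 higher. The other measured cytosolic enzymes had a median of 0.037, with 4 of 6 higher. Of 8 listed enzymes of the multi-synthetase complex the 5 measured had a median of 0.13, and of 12 listed free enzymes the 9 measured had 0.087. The sizes of these sets are small and none of their differences was tested. Counts at an unadjusted p below 0.05 went from 0 to 3 without deficient pig 3 (FARSB, GARS and SARS, where 2.88% of all probe sets did so), to 2 without excess pig 11 (DARS and GARS, against 3.54%), to 1 without deficient pig 2 (RARS2, against 1.51%) and to 1 without excess pig 9 (CARS2, against 2.08%).

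**Figure D2:**
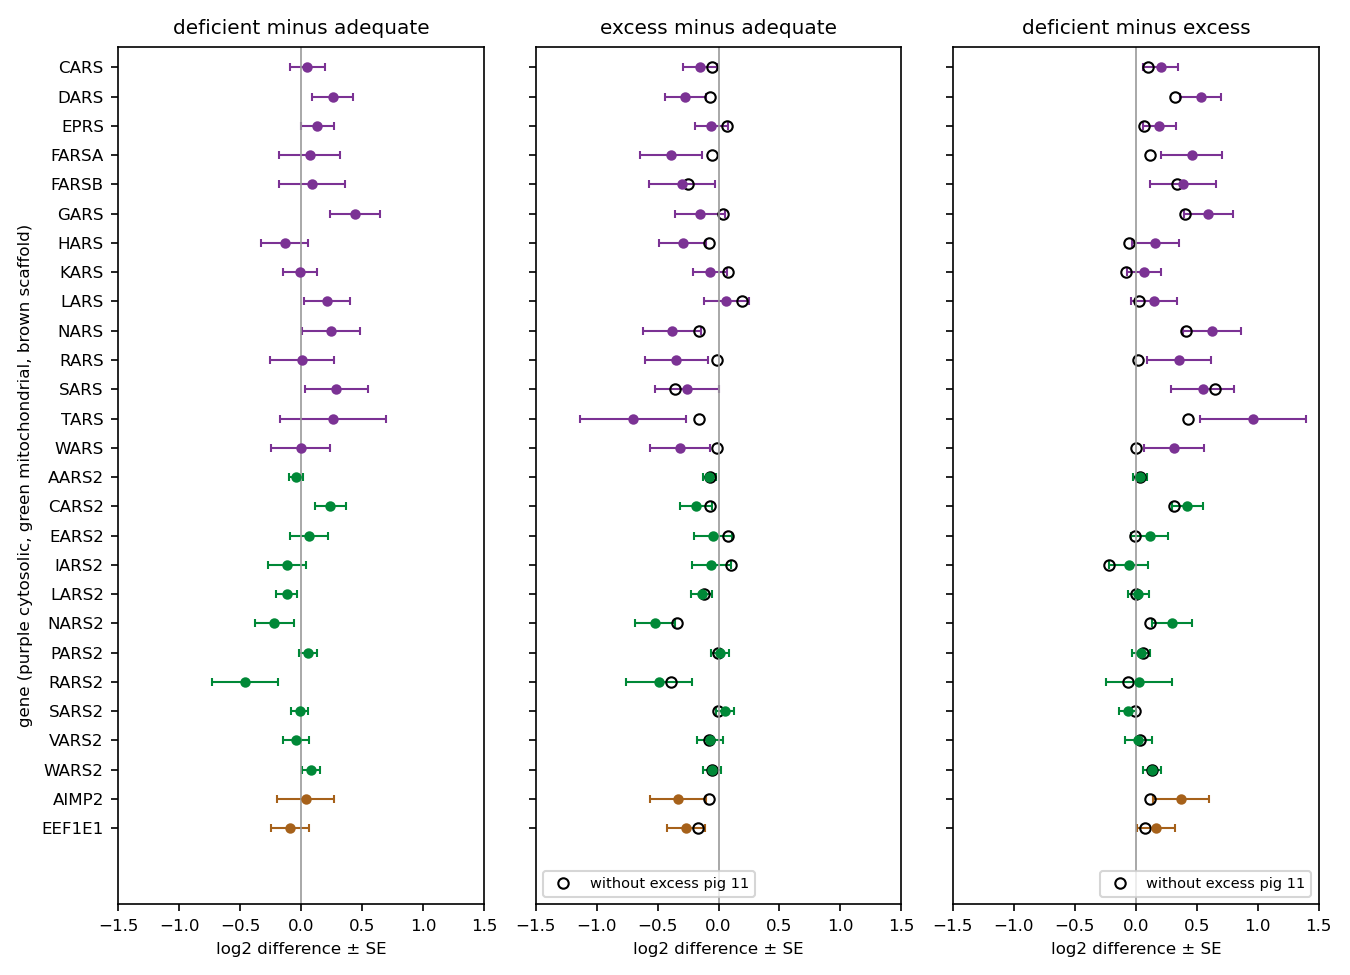
Log2 differences of the 27 members in the 3 comparisons, as filled points with SE bars from the limma model (purple cytosolic, green mitochondrial, brown scaffold); open circles show the difference without excess pig 11. In the middle and right panels the cytosolic points lie farther from 0 than their open circles for most genes, as for TARS (-0.70 against -0.16, excess minus adequate), but not for SARS and KARS in either panel, nor for EPRS and LARS in the middle one.

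Between excess and adequate pigs, 13 of 14 cytosolic enzymes lay lower in the excess pigs, with a median of -0.28, but this was -0.050 and 10 of 14 without pig 11. After quantile normalization of the deposited values it was -0.21 and 12 of 14. Over all probe sets 49.8% lay lower, and among those at or above the median level 71.6% lay lower, with a median of -0.11 (-0.018 without pig 11). Pig 11 held the lowest of the 9 values for 12 of the 14 cytosolic enzymes. It did so for 31.6% of all probe sets and for 53.0% of those at or above the median level. TARS, the threonine enzyme, showed the largest gap: 8.27 and 8.53 in pigs 9 and 10, 6.79 in pig 11 and 8.95, 8.58 and 8.16 in the adequate pigs. DARS, which had the smallest p of the cytosolic enzymes here, differed by -0.27 ± 0.17 and by -0.066 ± 0.084 without pig 11. FARSA stood at 8.49, 8.38 and 7.41, and RARS at 7.57, 7.56 and 6.57, again with pig 11 last. Without that pig the excess minus adequate differences of FARSA, RARS and WARS were -0.050, -0.013 and -0.011, in place of -0.39, -0.35 and -0.32.

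No cytosolic enzyme reached an unadjusted p below 0.05 in this comparison, where 1 member, the mitochondrial NARS2, did, against 3.56% of all probe sets (2.44% without pig 11, where NARS2 again was the only one). FARSB alone among the cytosolic enzymes lay fully below the adequate pigs, at 9.57, 9.44 and 9.34 against 9.68, 9.58 and 9.99 (-0.30 ± 0.27, and -0.25 without pig 11). SARS, the serine enzyme, ran otherwise than most. It stood at 9.47, 9.47 and 9.77 in the excess pigs, with pig 11 the highest of them, and at 10.04, 9.42 and 10.03 in the adequate pigs. Its difference was -0.26 ± 0.26, and -0.36 ± 0.30 without pig 11. LARS was the single cytosolic enzyme above the adequate mean, by 0.063 ± 0.19 (0.19 without pig 11), and this sign turned without excess pig 9 (-0.15). The brighter WARS probe set lay at 6.07 in pig 11 against 7.03 and 6.95 in pigs 9 and 10, while the dimmer one read 5.51 there against 5.46 and 5.54.

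With all 9 arrays deficient and excess pigs lay farthest apart, and all 14 cytosolic enzymes were above the excess mean in the deficient pigs, with a median of 0.37. Among all probe sets 50.0% lay higher, and 65.1% of those at or above the median level. Without pig 11 the count was 12 of 14 and the median 0.11, no wider than the 0.11 of deficient minus adequate. An unadjusted p below 0.05 was reached by 4 members (DARS, GARS, NARS and the mitochondrial CARS2), each higher in the deficient pigs, against 4.08% of all probe sets in either direction. None passed the adjusted test, where the smallest adjusted p of a member was 0.872. The 4 became 2 without pig 11 (CARS2 and DARS, against 3.71%), 6 without excess pig 9 (against 14.4% of all probe sets) and 6 without deficient pig 3 (against 3.25%).

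DARS stood at 10.10, 10.04 and 9.45 in the excess pigs, all below the lowest deficient value of 10.32. Deficient minus excess was 0.53 ± 0.17, or 1.44-fold (limma, adjusted p = 0.872), and 0.32 ± 0.084 without pig 11. GARS stood at 8.87, 8.70 and 8.22, just below the lowest deficient value of 8.88, with a difference of 0.60 ± 0.20, or 1.51-fold, and 0.41 ± 0.18 without pig 11. NARS, at 9.50, 9.01 and 8.86 in the deficient and 8.86, 8.57 and 8.06 in the excess pigs, differed by 0.63 ± 0.24. Without pig 11 this was 0.41 ± 0.21, and the lowest deficient value lay at the highest excess value. TARS differed by 0.96 ± 0.44, or 1.95-fold, and by 0.43 ± 0.24 without pig 11, and SARS by 0.55 ± 0.26 and 0.65 ± 0.30. The groups lay fully apart for 5 members, DARS, FARSA, GARS, TARS and CARS2, all higher with deficient lysine, against 4.28% of all probe sets, or 6.74% of those at or above the median level, and for none the other way, against 2.19%. Without pig 11, SARS joined them, making 6, where 7.13% of all probe sets lay fully apart in that direction and 6.46% in the other.

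The group means descended from deficient through adequate to excess for 10 of 14 cytosolic enzymes, 3 of 11 mitochondrial enzymes and AIMP2. The reverse order was found for SARS2 alone, against 15.6% of all probe sets. The descending order held for 18.4% of all probe sets and for 26.1% of those at or above the median level. Without pig 11 it held for 8 of the 14 cytosolic enzymes, against 19.1% of all probe sets. This way of counting was chosen after the values had been seen, and the 3 comparisons share pigs, so it is a description only.

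**Figure D3:**
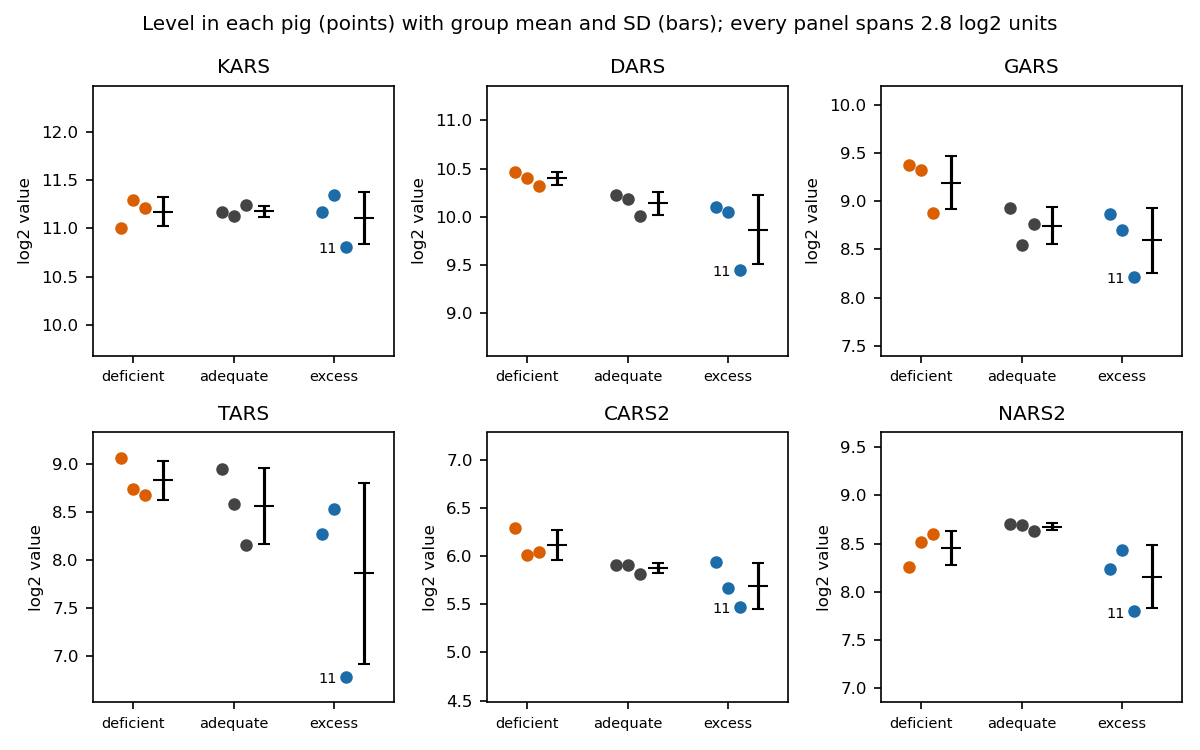
Log2 level of KARS, DARS, GARS, TARS, CARS2 and NARS2 in each pig (points) with the mean and SD of each group of 3 (bars); 11 marks excess pig 11. KARS is level across the diets, DARS and CARS2 step down from deficient to adequate pigs without overlap, NARS2 is highest in the adequate pigs at 8.71, 8.69 and 8.63, and pig 11 is the lowest point in every panel.

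Mitochondrial enzymes, which serve the translation of the mitochondrial genome's own mRNAs, did not lean one way in deficient pigs. Against adequate pigs 4 of 11 lay higher and 7 lower, with a median of -0.039. CARS2, the cysteine enzyme, was the highest by difference, at 6.29, 6.01 and 6.04 against 5.90, 5.90 and 5.82, with no overlap (0.24 ± 0.13; limma, adjusted p = 1.0). The excess pigs had 5.94, 5.66 and 5.47, so deficient minus excess was 0.42 ± 0.13, or 1.34-fold (limma, adjusted p = 0.872), and 0.31 ± 0.12 without pig 11. CARS2 thus had the largest difference among mitochondrial enzymes in that comparison, while CARS, the cytosolic enzyme for the same amino acid, differed by 0.20 ± 0.14, and by 0.10 without pig 11.

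NARS2, the mitochondrial asparagine enzyme, was highest with adequate lysine. The adequate values were 8.71, 8.69 and 8.63, the deficient ones 8.26, 8.51 and 8.60 and the excess ones 8.24, 8.43 and 7.80. Both other groups lay below every adequate pig. Excess minus adequate was -0.52 ± 0.16, or 1.43-fold lower (limma, adjusted p = 0.757; 95% confidence interval from -0.90 to -0.14), and -0.34 ± 0.11 without pig 11. Deficient minus adequate was -0.22 ± 0.16 (limma, adjusted p = 1.0). RARS2, for arginine, was also highest on average in the adequate pigs, at 6.40, 6.80 and 6.72. It varied much in the deficient group, with 6.28, 6.66 and 5.61, and was 6.48, 6.02 and 5.97 in the excess group. Its differences from the adequate pigs were -0.46 ± 0.27 and -0.49 ± 0.27, on the same adequate pigs. The excess one was -0.39 without pig 11, and the deficient one was -0.17 without deficient pig 3.

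In excess against adequate pigs 9 of 11 mitochondrial enzymes lay lower, with a median of -0.068, and the count was again 9 without pig 11, with a median of -0.070. Fully below the adequate pigs were NARS2, AARS2 for alanine (-0.074 ± 0.057, and -0.070 without pig 11) and LARS2 for leucine (-0.14 ± 0.087, and -0.12). AARS2 and LARS2 did so narrowly. Their highest excess values were 4.5567 and 6.2431, against lowest adequate values of 4.5654 and 6.2465. With NARS2, EEF1E1 and FARSB they made 5 of 27 members, against 3.84% of all probe sets and 6.05% of those at or above the median level. None lay fully apart in the other direction, against 3.2%. Without pig 11 VARS2 joined them, making 6, where 6.36% of all probe sets lay fully below and 6.63% fully above. The other mitochondrial enzymes were close to level. WARS2, SARS2, VARS2, PARS2, EARS2 and IARS2 differed from the adequate group by between -0.12 and 0.078 in the deficient pigs and by between -0.068 and 0.053 in the excess pigs. Without pig 11 the latter range was -0.082 to 0.11, and the signs of IARS2 (0.11), EARS2 (0.076), SARS2 (-0.0057) and PARS2 (-0.0038) turned.

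In the F test for any diet difference 4 of the 27 members had an unadjusted p below 0.05, namely CARS2, NARS2, DARS and GARS, against 2.54% of all probe sets. Each had an adjusted p of 0.933 (limma). Without pig 11 these were 2, DARS and NARS2, against 2.96%.

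Cytosolic enzymes lay above mitochondrial ones in deficient minus adequate, by 0.15 between the class medians. The gap was 0.11 to 0.20 when each pig was left out in turn. Among members at or above the median level, 13 cytosolic and 7 mitochondrial, it was 0.25, from medians of 0.13 and -0.12. It was -0.22 in excess minus adequate and 0.34 in deficient minus excess, but 0.020 and 0.078 without pig 11. In deficient minus adequate the median without KARS and GARS was 0.11, as with them. Over pigs, the mean deviation of the cytosolic class from its mean was 0.27, 0.19 and 0.079 in deficient pigs 1, 2 and 3, 0.13, -0.016 and 0.011 in adequate pigs 5, 6 and 7, and 0.032, -0.068 and -0.62 in excess pigs 9, 10 and 11. Adequate pig 5 thus overlapped the deficient pigs. The mitochondrial class ran only from -0.19 in pig 11 to 0.12 in adequate pig 6.

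Enzymes for the same amino acid were also paired across compartments, and in 6 of 8 pairs the cytosolic enzyme had the higher deficient minus adequate difference, with a median gap of 0.19. The widest gaps were those of arginine (0.47), asparagine (0.46), leucine (0.33) and serine (0.30), while cysteine (-0.19) and tryptophan (-0.083) went the other way. EPRS stood for the cytosol in the glutamate and proline pairs alike (0.066 and 0.077). In the cysteine, glutamate, proline and serine pairs CARS, EARS2, PARS2 and SARS2 lay below the median of all values. Differences of these genes may be compressed, and what this does to the gaps was not tested. Without deficient pig 3 the arginine gap was 0.081, and those of asparagine (0.67) and serine (0.57) were the widest. The median gap was 0.080 without adequate pig 6 and 0.087 without deficient pig 1, and the count was 5 of 8 without deficient pig 2 or adequate pig 7. In excess minus adequate 4 of 8 pairs had the cytosolic enzyme higher, with a median gap of 0.0091, and 6 of 8 and 0.056 without pig 11. In deficient minus excess 7 of 8 pairs had the cytosolic enzyme higher, and 6 of 8 without pig 11, with a median gap of 0.16 and 0.048. The pairs are genes measured in the same pigs and not replicates, so no test was made.

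**Figure D4:**
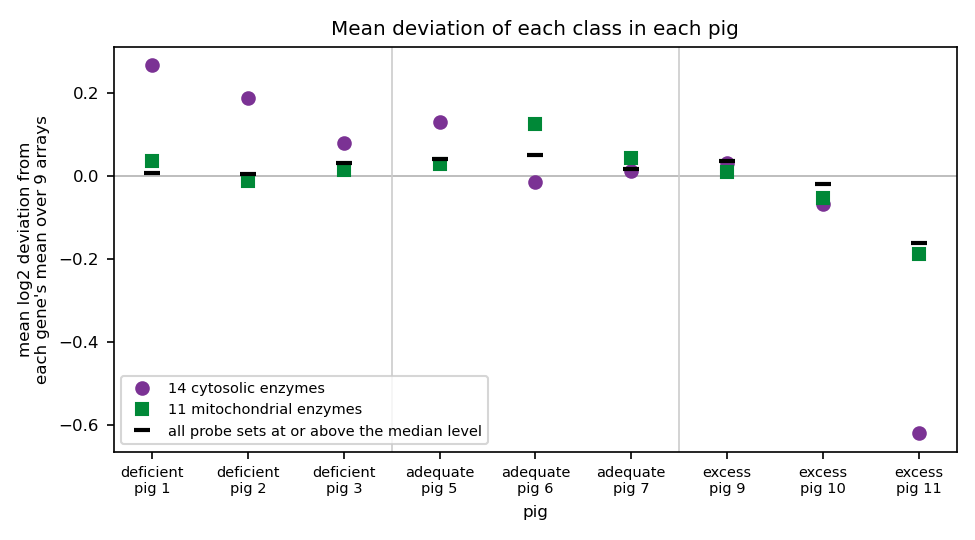
Mean log2 deviation of 14 cytosolic enzymes (circles), 11 mitochondrial enzymes (squares) and all probe sets at or above the median level (dashes) in each of the 9 pigs, each gene taken against its own mean over the 9 arrays. The cytosolic class is highest in deficient pig 1, at 0.27, and lowest in excess pig 11, at -0.62, where the dash lies at -0.16; that dash also takes in probe sets of lower level than most of the class.

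AIMP2 and EEF1E1, both structural subunits of the multi-synthetase complex, passed no test. AIMP2 stood at 8.41, 7.85 and 7.93 in the deficient, 8.02, 8.09 and 7.97 in the adequate and 8.04, 7.86 and 7.19 in the excess pigs. Deficient minus adequate was 0.037 ± 0.23, with the sign turning without deficient pig 1 (-0.14). Excess minus adequate was -0.33 ± 0.23, and -0.081 ± 0.17 without pig 11. EEF1E1 was 7.14 in each adequate pig, 6.69, 7.14 and 7.30 in the deficient pigs and 6.92, 7.01 and 6.69 in the excess pigs. All excess values lay below the adequate ones, with a difference of -0.26 ± 0.16 (limma, adjusted p = 0.757), and of -0.17 ± 0.16 without pig 11. Deficient minus adequate was -0.095 ± 0.16, and 0.081 without deficient pig 1. Deficient minus excess was 0.37 ± 0.23 for AIMP2 and 0.17 ± 0.16 for EEF1E1, and 0.12 ± 0.17 and 0.077 ± 0.16 without pig 11.

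Other genes around tRNA charging were taken from lists, and none of their members passed the adjusted test in any comparison. Of 9 measured accessory factors, TARSL2 among them, 5 lay higher and 4 lower in deficient than in adequate pigs. XPOT, which carries tRNA out of the nucleus, led them. Its values were 9.75, 9.46 and 9.38 with deficient lysine, 9.18, 9.17 and 8.60 with adequate and 9.17, 9.00 and 7.97 with excess lysine. The deficient pigs lay above all others. They lay fully above the adequate pigs for 1 of the 9 factors, against 3.77% of all probe sets. Fully above the excess pigs it was 2 of the 9, against 4.28%. XPOT differed by 0.55 ± 0.32 from the adequate pigs and by 0.82 ± 0.32 from the excess pigs (limma, adjusted p = 0.872), or 0.45 without pig 11. Of 12 tRNA maturation genes 5 lay higher and 7 lower, and of 14 genes of RNA polymerase III and its factors, which transcribe tRNA, 4 lay higher and 10 lower. In deficient minus excess those counts were 10 and 2, and 10 and 4, and without pig 11 they were 8 and 4, and 4 and 10. RPP25, a subunit of an RNase that trims tRNA ends, differed by -0.17 ± 0.070 in excess minus adequate (limma, adjusted p = 0.757), and by -0.13 without pig 11. It was the only one of the 12 maturation genes with an unadjusted p below 0.05 there, against 3.56% of all probe sets. Its mean level of 4.56 lay below the median of all values, so its difference may be compressed. POLR3D, a polymerase III subunit, differed by -0.33 ± 0.13 in deficient minus adequate (limma, adjusted p = 1.0). It was the only one of the 14 polymerase III genes with an unadjusted p below 0.05 there, against 1.85% of all probe sets. Without pig 11 there were 0 of the 14, against 3.54%. The 5 measured elongation factors that take charged tRNA to the ribosome, or reload those that do, had a median of 0.087 in deficient minus adequate. Of them 3 lay higher and 2 lower. EEF1A1 was the highest at 0.21 ± 0.12, EEF1D the lowest at -0.23 ± 0.12, and TUFM lay at -0.13 ± 0.21.

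Genes of the GCN2 and ATF4 response, into which known cytosolic synthetase targets of ATF4 were not counted, lay mostly higher in the deficient pigs. In deficient minus adequate 19 of 26 did so and 7 lay lower, with a median of 0.16, against 52.9% higher over all probe sets. The lowest difference was -1.26, and DDIT3 (-0.18) and CHAC1 (-0.14) were also among those lower. Groups lay fully apart for 9 in the higher direction and 1 in the lower, against 3.77% and 3.07% of all probe sets. The list was chosen with earlier results of these data known, so its counts against all probe sets are a description only. Of the 26, 5 reached an unadjusted p below 0.05, all higher, against 1.85% of all probe sets. The 4 with the smallest p were the serine synthesis genes PHGDH (2.16 ± 0.19), PSAT1 (2.28 ± 0.50) and PSPH (0.32 ± 0.089) and the transcription factor ATF5 (1.33 ± 0.37), and PHGDH had the smallest adjusted p, 0.145 (limma). In excess minus adequate 7 lay higher and 19 lower, and 14 and 12 without pig 11. Over all probe sets 49.8% lay lower there, and 71.6% of those at or above the median level. In deficient minus excess 24 of 26 lay higher, and 20 without pig 11, against 50.0% of all probe sets and 65.1% of those at or above the median level. PHGDH, PSAT1, PSPH and ATF5 differed there by 2.22, 2.10, 0.41 and 1.12, and by 2.16, 1.98, 0.38 and 0.91 without pig 11. In deficient minus adequate ATF4 itself differed by 0.052 ± 0.053 at the transcript level. Interferon-responsive genes, 8 in number, were measured because WARS is known to be induced by interferon gamma. Of these, 6 lay higher in deficient minus adequate with a median of 0.029, against 52.9% of all probe sets. In excess minus adequate 7 of the 8 lay higher, and 6 without pig 11, with a median of 0.11 either way. After quantile normalization of the deposited values it was 5 of the 8, with a median of 0.032. Of the 13751 probe sets below the median level, 9906 lay higher in that comparison, and 8027 without pig 11. CXCL9 differed there by 0.43 ± 0.14 (limma, adjusted p = 0.757), and by 0.37 without pig 11. It was the only one of the 8 with an unadjusted p below 0.05 there, against 3.56% of all probe sets. The levels of 7 of the 8, CXCL9 among them, lay below the median of all values, so that their differences may be compressed as well.

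Markers of other cell types differed between the groups beside these genes. All 6 measured fibroblast markers had a lower group mean in both other groups than in the adequate pigs. In each comparison 3 of the 6 lay fully below the adequate pigs, against 3.07% (deficient) and 3.84% (excess) of all probe sets. Their mean levels per pig were 9.86 to 10.18 in deficient, 10.27 to 10.62 in adequate and 9.68 to 10.15 in excess pigs (10.03 to 10.15 without pig 11). All 4 measured markers of smooth muscle and pericytes also had lower group means in both, with median differences of -0.28 and -0.32 (-0.28 without pig 11). None of them lay fully below the adequate pigs, and their mean levels per pig overlapped, at 8.32 to 8.62, 8.57 to 9.05 and 8.22 to 8.89. The 4 adipocyte markers were higher in deficient than in excess pigs without overlap of their mean level, at 6.12 to 6.35 against 5.51 to 5.64 (with or without pig 11), with 5.65 to 6.17 in the adequate pigs. Taken singly, 3 of the 4 lay fully above the excess pigs. This was so for 4.28% of all probe sets and 6.74% of those at or above the median level. Endothelial markers (4 measured) and immune markers (6 measured) overlapped between all groups, at 6.97 to 7.52 and at 5.61 to 6.23. A single nerve and a single satellite cell marker were measured, at 4.29 to 4.60 and at 4.69 to 5.70. The part of these cell types in the synthetase levels was not tested.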

How the data were processed

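Deposited values of 9 arrays, 1 per pig, were used as they stand. They are the authors' processed log2 expression values, taken as log2 because they run from 3.097 to 14.303; the submitters' processing notes name GCOS 1.2 and Partek without a role. How background was corrected, how probes were summarized and how arrays were normalized was not given in the sources used here. No genome build was given, so no coordinates are printed. Symbols came from the platform annotation: 13323 probe sets had 1 symbol (166 of them for several gene IDs), 357 several and 13878 none here.

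All 27558 probe sets and all 9 arrays entered 1 limma model (version 3.58.1, R 4.3.3; lmFit, eBayes; a mean for every diet), tested two-sided, with Benjamini-Hochberg adjustment over all of them. No filter on low values was used, so every member was tested, and the fit was checked on simulated data. With 3 pigs per group the number of arrays limits the precision: over all probe sets the median SE was 0.13. The labels give no pairing of pigs across the diets.

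Members and lists were chosen with earlier results of these data known. The naming rule took KARS, the scaffold subunits and, in each comparison, members without overlap between groups and with an unadjusted p below 0.05. Where a class had none, its member with the smallest p was taken. Other members are given by value after theirs were seen. Of other lists up to 4 genes below that p were named. XPOT, EEF1A1, EEF1D, TUFM, ATF4, DDIT3 and CHAC1 in deficient minus adequate were added after their values were seen. Alternatives covered scaling, arrays in the fit, prior, weights, spread, probe set choice, a filter on dim probe sets and each pig left out; after the data were seen, classes held to members at or above the median level, pairs with each pig left out and the F test without pig 11 were added. A planned promoter search was not run.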

Additional observations from a re-analysis of the deposited data

How the results depend on the processing

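No member passed the adjusted threshold under any of the 17 alternatives in any comparison. In deficient minus adequate the number of members with an unadjusted p below 0.05 was 0 with all settings as reported. It was 1 after quantile normalization of the deposited values, where 2.1% of all probe sets had such a p, against 1.85% as reported. It was 3 with only the 6 arrays compared (3.41%), 4 with array quality weights (8.01%) and 3 with the SD of the array values as a covariate (4.8%). When each pig was left out it ran from 0 to 3. In excess minus adequate it was 1 (3.56%), 3 with only the 6 arrays compared (2.15%), and 1 to 3 when each pig was left out, with 3 without excess pig 9 (16.8%) or deficient pig 3 (2.97%). In deficient minus excess it was 4 (4.08%), 1 with array quality weights (1.65%), and 2 to 6 when each pig was left out. With the SD covariate the median of the cytosolic enzymes was -0.022 in excess minus adequate and 0.13 in deficient minus excess, and cytosolic minus mitochondrial was 0.0197 and 0.111. When each pig was left out, those medians ran from -0.376 to -0.0499 and from 0.109 to 0.491, and those gaps from -0.280 to 0.0202 and from 0.0782 to 0.426, with the end nearest 0, or past it, without excess pig 11. The cause was not tested. In deficient minus adequate both class medians kept their sign under every alternative. KARS turned sign in deficient minus adequate with array quality weights (0.0104) and with the SD covariate (0.0195), and ran from -0.0712 to 0.0748 when each pig was left out. It turned with that covariate in excess minus adequate (0.0624) and in deficient minus excess (-0.0429), and ran from -0.190 to 0.0771 and from -0.0842 to 0.183 over the pigs left out. In deficient minus adequate EEF1E1 ran from -0.222 to 0.0809 and AIMP2 from -0.137 to 0.142. Among members at or above the median level, an alternative chosen after seeing the data, the mitochondrial median was -0.118 in deficient minus adequate and -0.139 in excess minus adequate. No paired analysis was possible because the diets share no pig numbers.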

Other observations

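On 10 of the 27 members at least 2 arrays held exactly the same value, as did 41.3% of all probe sets, so the spread within a group can come out small. EEF1E1 had no identical values, but its adequate pigs had an SD of 0.0013, the smallest here beside those of 0.022 for PARS2 in the deficient and 0.024 for VARS2 in the excess pigs.

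The widest range over the 9 pigs was that of TARS, 2.27, and it was 0.90 without excess pig 11. The range of the cytosolic enzymes had a median of 1.07, and of 0.46 without that pig, while that of the mitochondrial enzymes was 0.41 with it and without it. Deficient pig 1 held the highest value of 6 of the 14 cytosolic enzymes and of 9 of the 27 members, against 8.48% of all probe sets. Deficient pig 3 had the lowest value of FARSB, 9.15, and of RARS2, 5.61, and among the 3 deficient pigs also that of SARS, 9.59.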
